A study of Arabidopsis thaliana with 2 samples.

Results

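Calmodulin-like (CML) proteins are small calcium-binding proteins built from EF-hand motifs, and they are known as sensors that pass a rise in cellular calcium on to partner proteins. They were examined in leaves of *Arabidopsis thaliana* plants over-expressing NST1, a transcription factor of the NAC family that directs secondary wall formation. The family was taken as a list of 41 loci, and a member was measured if an array probe assigned to exactly 1 gene stood for its locus. This gave 25 of the 41 genes, each with 1 probe, out of 9253 genes and 9335 probes of 1 gene on an array of 22575 probes.

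Two-colour arrays compared rosette leaf RNA of 2 over-expressors with wild type, 1 array per plant. Both plants were T1 plants (first-generation transformants) at 2 weeks of age with NST1 under the constitutive 35S promoter, and they came from independent transformations, numbers 36 and 44. They are called plant 36 and plant 44 here. Plants were grown in 16 h light and 8 h dark without treatment, and over-expressors formed secondary walls in ectopic places in above-ground organs, per the labels. Over-expressor RNA was in Cy5 and wild-type RNA in Cy3 on both arrays. With 0 dye swaps, dye and genotype cannot be told apart. Wild type entered as 1 control sample whose own spread is not in any test.

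Each value is the authors' deposited log ratio of a probe, read here as log10. The sources used here do not state its base or centring, and its direction is likely over-expressor over wild type from the dye labels. A fold therefore holds only if the base is 10. If the ratio ran the other way, every sign, call and order given here would turn, so that CML41 would be the highest member, AT5G39670 the lowest, and the 3 genes that rose would have fallen. The median over all probes was -0.002 for plant 36 and -0.004 for plant 44. Ratios give no expression level, so neither the abundance of a CML transcript nor the leaf identity of the tissue could be checked, and fewer cells of a type and less RNA per cell cannot be told apart. A gene "rose" or "fell" where its probe passed an adjusted p of 0.05 in limma's moderated test against 0, with Benjamini-Hochberg adjustment over all 22575 probes. Errors are the SD of the 2 plants.

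In plants, CML genes form a large family beside the conserved calmodulins, and many members respond to touch, wounding, cold or microbes. Some proteins of the family sit in particular places, such as plasmodesmata, the channels between neighbouring cells, or mitochondria. The response of a cell to calcium depends in part on which of these sensors it holds. Of the 25 measured genes, 7 carry a symbol in the annotation used here (CML23, CML30, CML37, CML38, CML41, CML42 and CML43) and 18 are named by locus alone.

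On the likely direction, most CML genes lay slightly above wild type in the over-expressors, with a few members well above it and 1 far below. Of the 25 genes, 3 rose (12.0%, against 9.99% of all probes of 1 gene), namely AT3G01830, CML38 and AT3G25600. None fell in limma, against 12.4% of all probes of 1 gene. At an unadjusted p under 0.05 in limma, 12 of the 25 members were higher, against 2202 of the 9335 probes of 1 gene. At that cut 1 member, AT1G12310, was lower, as were 2175 of those probes. By the adjusted p of this fit, the share that rose is near the background. With each array centred on its median it was 24.0% against 15.3%, and in the fit on probes with 1 gene alone 32.0% against 17.2%. With a minimum fold of 1.2 it was 4.0% against 3.45%. Without the unnamed probes below -1.2 it was 4.0% against 9.17%, so the comparison depended on the setting. On both arrays, 18 members (72.0%) lay above 0, against 42.2% of all probes of 1 gene, and 5 members (20.0%) lay below 0, against 41.0%. The median of the member means was 0.0485, against 0.001 over all probes of 1 gene. Within each plant, the median of the members' log ratios was 0.075 in plant 36 and 0.054 in plant 44. The median distance of a member's mean from 0, 0.073, was close to the 0.072 of all probes of 1 gene. These counts describe a list and carry no test.

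**Figure D1:**
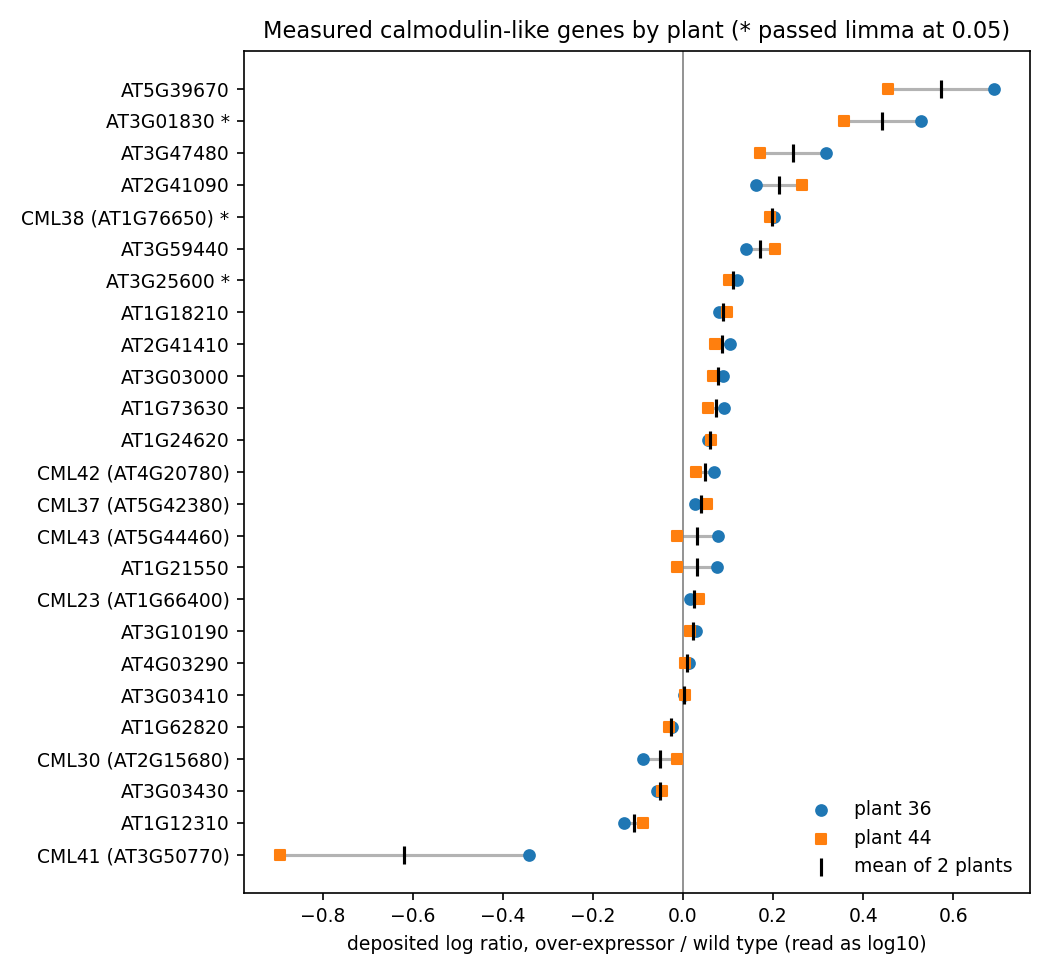
Deposited log ratio (read as log10) of each of the 25 measured CML genes, ordered by mean. Circles are plant 36, squares plant 44, ticks their mean, grey lines the distance between the plants, and asterisks mark the 3 genes past the limma threshold. CML41 stands apart at the low end with the widest distance between its plants, and AT5G39670 and AT3G01830 are the highest.

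CML41 (AT3G50770), a sensor of plasmodesmata that is known to promote callose deposition there when bacterial flagellin is perceived, was the lowest member. It lay at -0.342 in plant 36 and at -0.896 in plant 44. Both plants were below wild type, 2.2-fold in plant 36 and 7.87-fold in plant 44. The mean of -0.619 ± 0.392 (SD, n = 2) did not pass in limma (adjusted p = 0.129), and its 95% interval ran from -1.29 to 0.053. Only 20 of the 9335 probes of 1 gene, CML41 included, had a mean as low. It was the single member 2-fold or more lower on both arrays, where 2.44% of all probes of 1 gene lay.

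CML38 (AT1G76650) is a sensor induced by wounding and low oxygen that is found in cytoplasmic RNA granules. It lay at 0.201 in plant 36 and 0.194 in plant 44. The plants hardly differed, and CML38 rose to 0.198 ± 0.00495, or 1.58-fold (limma adjusted p = 0.0305). It was the single member whose call held in each of the 8 other moderated fits, with an adjusted p between 0.0161 and 0.0493, while without a prior its adjusted p was 0.253.

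CML37 (AT5G42380), a close relative of CML38 that is known to favour jasmonate defence against insects, lay at 0.027 and 0.054 in plants 36 and 44. CML42 (AT4G20780), which affects trichome branching and counteracts insect defence, lay at 0.069 and 0.028. Both genes were slightly above wild type in both plants without passing, with adjusted p = 0.191 for CML37 and adjusted p = 0.187 for CML42. The 95% interval of CML37 ran from 0.956-fold to 1.26-fold, and that of CML42 from 0.95-fold to 1.32-fold, so a change of 2-fold lies outside both.

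CML43 (AT5G44460), a relative of CML42 linked to responses to pathogens, lay at 0.077 in plant 36 and at -0.013 in plant 44. The plants fell on opposite sides of 0, and the mean of 0.032 ± 0.0636 did not pass (adjusted p = 0.506). AT1G21550 held nearly the same pair of values, 0.075 and -0.013, and did not pass either. These were the 2 members with plants of opposite sign.

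CML23 (AT1G66400), which acts with its relative TCH2 in flowering time, lay at 0.015 and 0.035. CML30 (AT2G15680), reported in mitochondria, lay at -0.089 and -0.014. CML23 was marginally above and CML30 below wild type in both plants, and neither passed (adjusted p = 0.313 and adjusted p = 0.278). TCH2 and TCH3, genes named for their induction by touch, had no probe of 1 gene and were not analysed here.

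Among the members named by locus alone, AT5G39670 was the highest of the family on the likely direction, at 0.691 in plant 36 and 0.455 in plant 44. Both plants were well above wild type, 4.91-fold and 2.85-fold. Its mean of 0.573 ± 0.167, or 3.74-fold, missed the threshold narrowly in limma (adjusted p = 0.0509). It passed in 5 of the 8 other moderated fits, where its adjusted p lay between 0.0231 and 0.0792, and without a prior its adjusted p was 0.304. Of all probes of 1 gene, 76 had a mean as high, AT5G39670 included.

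AT3G01830 lay at 0.528 in plant 36 and 0.358 in plant 44. It was above wild type in both plants, 3.37-fold and 2.28-fold, and rose to 0.443 ± 0.12, or 2.77-fold (limma adjusted p = 0.0483). The call held in 6 of the 8 other moderated fits, with an adjusted p between 0.0219 and 0.075. AT5G39670 and AT3G01830 were the 2 members at or beyond 2-fold higher on both arrays, a range that held 2.71% of all probes of 1 gene.

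AT3G47480 lay at 0.318 in plant 36 and 0.17 in plant 44, and AT2G41090 at 0.162 in plant 36 and 0.265 in plant 44. Both were above wild type in both plants, with the order of the plants turned between them. Neither passed, at 0.244 ± 0.105 for AT3G47480 (adjusted p = 0.0815) and at 0.214 ± 0.0728 for AT2G41090 (adjusted p = 0.0648). In the 8 other moderated fits, AT3G47480 passed in 3, with an adjusted p between 0.0432 and 0.172, and AT2G41090 in 4, with an adjusted p between 0.0342 and 0.14.

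AT3G59440 lay at 0.14 and 0.204 in plants 36 and 44 and did not pass (adjusted p = 0.0543), but it did in 5 of the 8 other moderated fits, with an adjusted p between 0.0294 and 0.134. AT3G25600 lay at 0.12 and 0.102 and rose to 0.111 ± 0.0127, or 1.29-fold (adjusted p = 0.0498). Both genes passed in 5 of those fits, neither in 2, and AT3G25600 without AT3G59440 in 1. The fits reuse the same 2 arrays, so they cannot decide whether the 2 genes differ, and no difference between them was tested. The call of AT3G25600 is narrow, holding in 6 of the 8 other moderated fits with an adjusted p between 0.0341 and 0.269.

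A group of 5 further members lay a little above wild type in both plants without passing. Their means were 0.088 for AT1G18210, 0.087 for AT2G41410, 0.0775 for AT3G03000, 0.073 for AT1G73630 and 0.0595 for AT1G24620, with adjusted p between 0.064 and 0.103. None of the 5 reached 1.5-fold at the upper end of its 95% interval, the highest end being 1.42-fold for AT2G41410. AT3G10190 at 0.022, AT4G03290 at 0.0085 and AT3G03410 at 0.003 lay closest to wild type among the members named by locus.

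AT1G12310 was the second lowest member, at -0.132 in plant 36 and -0.088 in plant 44. Both plants were below wild type, and the mean of -0.11 ± 0.0311 did not pass (adjusted p = 0.0691). It fell in 1 of the 8 other moderated fits, the one restricted to probes with 1 gene (adjusted p = 0.0448), while its adjusted p in those fits ranged up to 0.392. AT1G62820 lay at -0.024 and -0.031, and AT3G03430 at -0.058 and -0.046. Neither passed, at adjusted p = 0.253 and adjusted p = 0.117.

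In order of their means, from AT5G39670 down to CML41, the 95% interval of each member overlapped that of the next. Neighbours in such an order lie close by construction, and no difference between members was tested. By bands of the mean, 4 members lay at 0.2 or more, 8 between 0.05 and 0.2, 11 between -0.06 and 0.05, and 2 under -0.1. The loci were spread over all 5 chromosomes, with 8 on chromosome 1, 3 on chromosome 2, 9 on chromosome 3, 2 on chromosome 4 and 3 on chromosome 5. The 3 genes that rose lie on chromosomes 1 and 3. The median of the member means was 0.0453 for chromosome 1 and 0.0775 for chromosome 3. It was 0.087 for chromosome 2, where 0 members rose, 0.0285 for chromosome 4 and 0.0405 for chromosome 5.

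The 2 plants were compared gene by gene, with no test because each had 1 array. CML41 differed by -0.554 (plant 44 minus plant 36), the lowest difference of all 9335 probes of 1 gene, and 29 probes differed by as much in either direction. It was the single member with plants 2-fold or more apart, as were 1.17% of all probes of 1 gene. The next largest differences were -0.236 for AT5G39670, -0.17 for AT3G01830, -0.148 for AT3G47480 and 0.103 for AT2G41090. The other 20 members differed by less than 0.1, which was true of 86.3% of all probes of 1 gene. The 5 members with the largest absolute mean were also the 5 whose plants lay farthest apart. This relation was not computed over all probes of 1 gene, so it is not shown to be particular to CML genes. In 15 members (60.0%, against 49.8% of all probes of 1 gene) plant 36 had the higher log ratio, and in 10 plant 44 had.

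**Figure D2:**
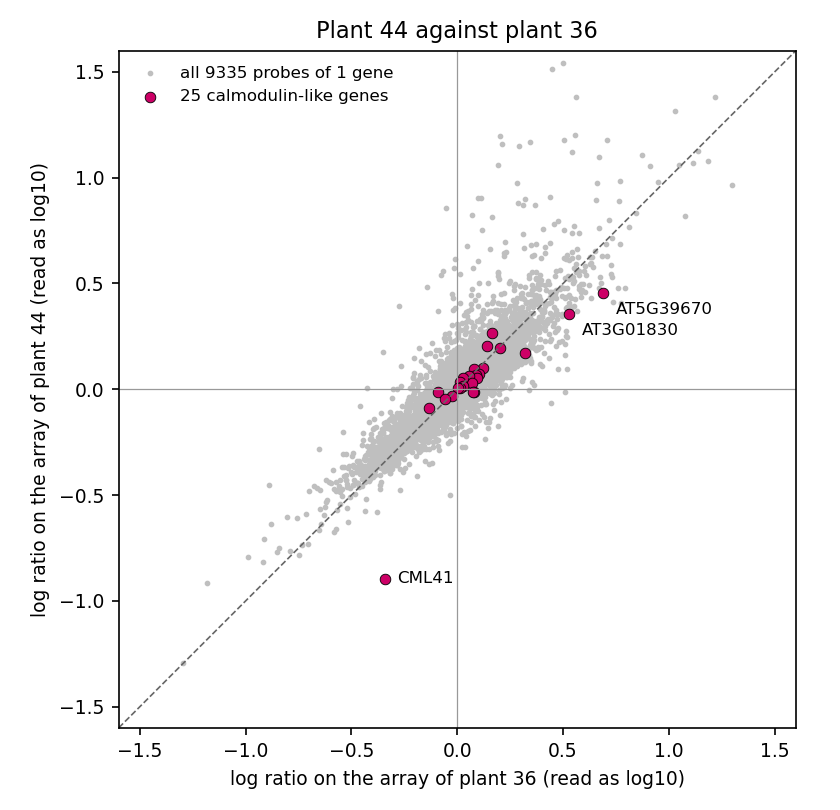
Log ratio on the array of plant 44 against that of plant 36 (both read as log10), in grey for the 9335 probes of 1 gene and in colour for the 25 CML genes; the dashed line marks equal values. CML41 lies below the line and away from the grey cloud, while AT5G39670 and AT3G01830 lie below it at the upper right.

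**Figure D3:**
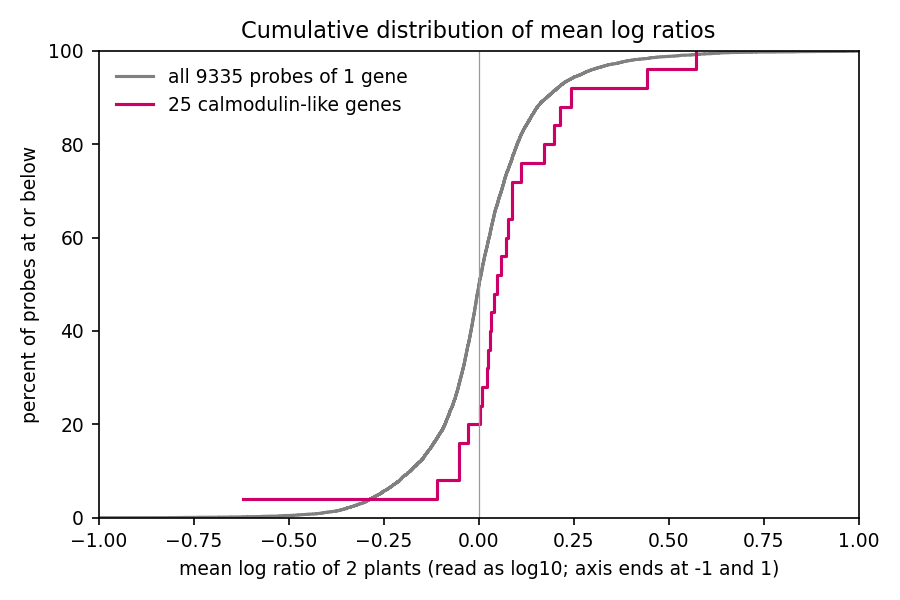
Cumulative percent of probes at or below a given mean log ratio (read as log10, axis ending at -1 and 1), for the 25 CML genes and all 9335 probes of 1 gene. The CML line runs to the right of the other over most of the range, with medians of 0.0485 and 0.001, and starts at CML41 on the left.

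The naming of the probes limits all of these values. The probe's listed accession was a RefSeq transcript in 16 of the 25 members, and in 15 of these the RefSeq table lists it for the same locus. AT3G03430 was the exception and was placed by its locus name. The other 9 members, among them CML41 and AT5G39670, carry another kind of accession that could not be looked up here. Over the array, the 2 probes of a gene had means of the same sign in 45 of 77 genes with 2 probes, and 0 CML genes had a second probe. Probe sequences were not used here, so signal shared between closely related CML genes was not tested.

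Calcium signalling beyond the CML family was looked at through 9 other gene lists. Of these, 7 had 0 measured genes and were not analysed here: calmodulins, CBL sensors, CIPK kinases, calcium-dependent CPK kinases, CNGC channels, calcium pumps and exchangers, and plasmodesmal callose genes. These 7 lists hold between 7 and 34 loci each, whereas 25 of the 41 CML loci were measured. Coverage was thus uneven between gene families. The measured genes, and the background formed from them, may not be a random part of the genome. Whether loci of these 7 lists lie among the 13200 probes without a name was not tested. The other 2 of the 9 lists hold calmodulin-binding proteins.

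All 3 measured genes of the 6 listed as calmodulin-binding transcription activators (CAMTA), factors that tie calcium to stress-responsive transcription, were above wild type in both plants, as were 42.2% of all probes of 1 gene, and 1 of them rose (33.3%, against 9.99%). With 3 genes these shares say little. AT1G67310 lay at 0.13 in plant 36 and 0.115 in plant 44 and rose to 0.122 ± 0.0106, or 1.33-fold (limma adjusted p = 0.0439). AT3G16940 at 0.111 and AT4G16150 at 0.059 did not pass (adjusted p = 0.0813 and adjusted p = 0.101).

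IQD proteins bind calmodulin and are known as scaffolds at microtubules and membranes that help shape cells. Of 33 listed IQD genes, 13 were measured, of which 3 rose (23.1%, against 9.99% of all probes of 1 gene), 2 fell (15.4%, against 12.4%) and 8 did not pass. Their median was 0.0135. On both arrays, 7 lay above 0 (53.85%, against 42.2% of all probes of 1 gene) and 5 below 0 (38.46%, against 41.0%). The largest change was in iqd21 (AT3G49260), at -0.362 in plant 36 and -0.307 in plant 44, which fell to -0.335 ± 0.0389 (adjusted p = 0.0302). IQD28 (AT1G14380) lay at 0.272 and 0.215 and rose to 0.244 ± 0.0403, or 1.75-fold (adjusted p = 0.0366). iqd33 (AT5G35670) lay at -0.222 and -0.175 and fell to -0.199 ± 0.0332 (adjusted p = 0.0392). In these 3 genes both plants were on the same side of wild type, and each distance between the plants was smaller than the distance of the nearer plant from 0. They were named because they passed the test against 0 on the same values, which favours such agreement, so it adds no support.

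**Figure D4:**
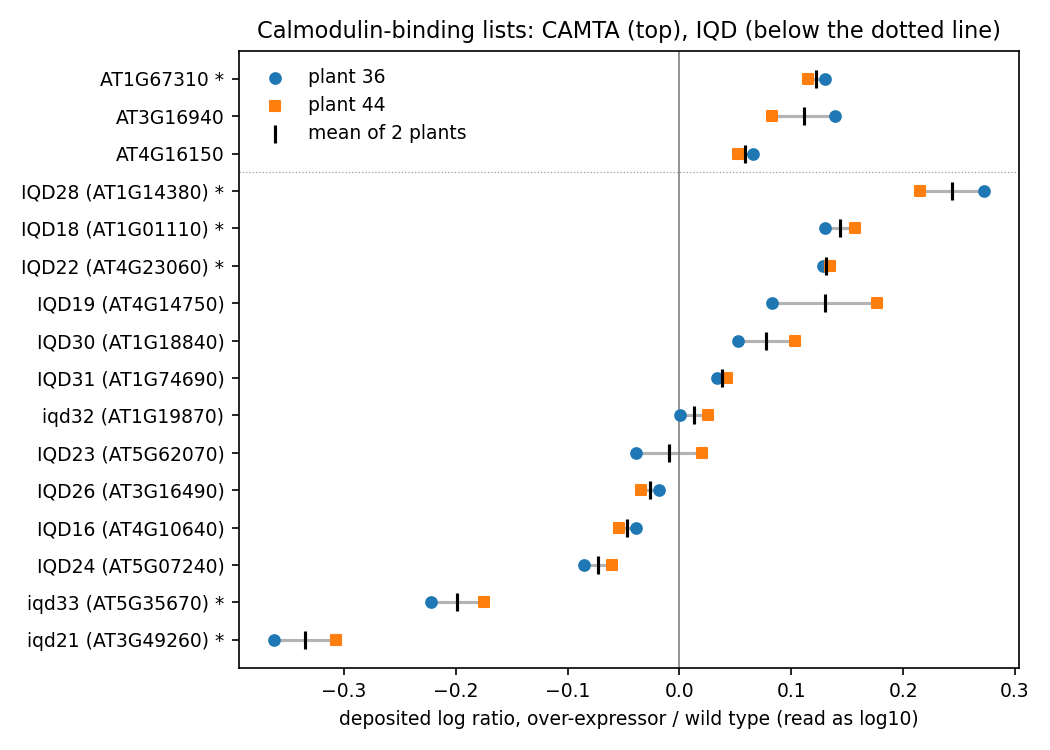
Deposited log ratio (read as log10) of the measured genes of both calmodulin-binding lists, with the 3 CAMTA genes above the dotted line and the 13 IQD genes under it. Circles are plant 36, squares plant 44, ticks their mean, and asterisks mark genes past the limma threshold; the IQD genes spread to both sides of 0, from iqd21 at -0.335 to IQD28 at 0.244.

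For the remaining 16 CML loci no probe of 1 gene was at hand. They comprised 9 with a symbol (TCH2, TCH3, MSS3, AGD11, CML11, CEN2, CAM8, CAM9 and PC1) and 7 named by locus (AT1G05990, AT1G18530, AT1G32250, AT1G76640, AT2G36180, AT3G03400 and AT5G17470), and were not analysed here.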

How the data were processed

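The deposited values, log10 ratios as read here from their range of -2 to 2, came as 1 value per probe and array. The authors' steps before deposit are not stated in the sources at hand. Dyes and RNA are per the labels. The platform's annotation table paired probes with genes, and symbols came from the TAIR10.1 RefSeq table by gene ID (24 members) or locus name (1 member). Probes with several genes (40) or without a name (13200) stayed in the fit. The test was limma's (3.58.1, under R 4.3.3): a constant per probe was fitted to both log ratios and its moderated statistic (1 residual degree of freedom plus a prior of 1.37) was tested two-sided against 0, without further centring. Without a prior, probes with equal values on both arrays have no spread and were not tested. The fit was also run on simulated data whose spread varied less among probes than here, so that run does not check the calls. No scanner intensities were used, so the number of arrays limits the precision. The moderated p-values measure spread between the 2 plants alone, with that of the probe itself combined with that over all probes in the fit. Members, lists and tests were chosen with earlier results of these data known. Named genes were every measured CML gene and, from each other list, up to 3 genes with the largest absolute mean among those past the threshold. The other CAMTA genes and the neighbours on the chromosome are named outside that rule. The CBL, CIPK, CPK, CNGC, IQD and plasmodesmal lists were formed by symbol, ignoring letter case, and the others by locus.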

Additional observations from a re-analysis of the deposited data

How the results depend on the processing

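The refits left the mean of each CML gene unchanged or, with centring or scaling, moved it only slightly. They therefore could not test the sign of a mean. CML43 and AT1G21550 lay below 0 in plant 44 alone. The count of genes that rose depended on the setting. Against 3, it was 6 with each array centred on its median, 7 with centring and scaling, 7 without probes at 0 on both arrays, 5 with a robust prior and 8 in a fit on probes with 1 gene. The last fit also gave 1 that fell (4.0%, against 17.4% of all probes of 1 gene). The share of all probes of 1 gene that rose lay between 11.9% and 17.2% in these 5 fits. With a minimum fold of 1.2 the CML count was 1 (4.0%, against 3.45% of all probes of 1 gene). It was also 1 without the 462 unnamed probes below -1.2 (4.0%, against 9.17%), an alternative chosen after the data were seen. Without a prior the CML count was 0, as was the count over all probes of 1 gene, with 2 CML genes higher and 0 lower at an unadjusted p under 0.05. At an adjusted p of 0.01 in limma the CML count was 0. At an unadjusted p under 0.05 in limma, 12 of the 25 CML genes were higher, against 2202 of the 9335 probes of 1 gene. By the same cut 1 CML gene was lower, against 2175 of those probes. The cause of the differences between settings was not tested. At a 3-fold limit, and with a log2 reading, 0 CML genes lay beyond the limit on both arrays in either direction. On single arrays the median of the members' log ratios was 0.075 in plant 36, with 20 members above 0, and 0.054 in plant 44, with 18 above 0. No paired analysis was possible because the 2 plants form 1 group, and counts of calls without 1 plant were not run because no residual degrees of freedom remain.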

Other observations

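The genes next to the measured CML genes on the chromosome were taken by their order in the TAIR10.1 RefSeq table. In 5 of 20 pairs of a CML gene and a measured neighbour the means had the same sign. This share was not computed for other neighbouring genes, so it has no reference, and AT3G03420 counts in more than 1 pair. Of the 19 neighbours 2 rose (10.5%, against 9.99% of all probes of 1 gene), 3 fell (15.8%, against 12.4%) and 14 did not pass in limma. Both shares are near the background. Beside AT3G01830, AT3G01820 lay at -0.091 in plant 36 and -0.041 in plant 44. Beside CML38, AT1G76660 lay at -0.007 and 0.03, and beside AT3G25600, AT3G25610 lay at 0.106 and 0.136. The neighbour of CML41, AT3G50780, lay at -0.096 and -0.107, so it was slightly below wild type in both plants without the distance between the plants seen in CML41. These pairs were looked up after the values of the CML genes had been seen, and no test was made of them.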
